A study of Mus musculus with 6 samples.

Results

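The genes described here handle thyroid hormone inside cells: Dio2 and Dio3, which encode the activating and the inactivating deiodinase, Thra and Thrb, which encode the nuclear receptors, and Klf9, a hormone-induced transcription factor. They were found by gene symbol among the array features, called probe sets, that the platform annotation assigns to a single gene. Of the 5 genes, 4 had such probe sets, 13 in all of 22626. Dio3 had 0 and was not analysed here. RNA came from whole eyeballs of mouse pups of mixed strain background at postnatal day 1, with 3 wild-type and 3 Brg1 cKO samples and 1 array per sample. Brg1 cKO pups carried Brg1 flox/flox alleles and the Le-Cre transgene, which recombines in the head surface ectoderm that forms lens and ocular surface from before lens formation. The controls are labelled wild type, and by the study's methods each array holds an individual eyeball and its wild-type match was a littermate. The study used Brg1 flox/flox mice as controls elsewhere without naming these arrays, and no Le-Cre control was arrayed, so effects of Cre and of Brg1 loss cannot be told apart. Pups of this genotype varied in their eye defects, and the study also describes occasional loss of the floxed allele through the germline. The 5 genes were selected on their log2 intensities in these 6 arrays, with the genotype differences known, and those differences are therefore given as a description, with nothing drawn from a test of them.

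Thyroxine, the main circulating hormone, enters cells through membrane transporters. Type II deiodinase, the Dio2 product, converts it to triiodothyronine, and type III deiodinase, the Dio3 product, inactivates both. Triiodothyronine binds the receptors encoded by Thra and Thrb, which sit on DNA with retinoid X receptors and exchange corepressors for coactivators when hormone is bound. Klf9 is induced by triiodothyronine and also by glucocorticoids. In the eye, thyroid hormone is best known for cones, where a Thrb product directs the choice of opsin.

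Because Dio2 showed the largest genotype difference of these genes, its promoter is printed, from 250 bases before to 50 bases after the RefSeq start. The window is chr12:90738989-90739288 on the minus strand of GRCm38.p6, written 5′ to 3′. The capitals mark a match to the cAMP response element TGACGTCA, at positions -95 to -88, and a TATA box core TATAAA, at positions -30 to -25, counted from the start as 1.
Dio2: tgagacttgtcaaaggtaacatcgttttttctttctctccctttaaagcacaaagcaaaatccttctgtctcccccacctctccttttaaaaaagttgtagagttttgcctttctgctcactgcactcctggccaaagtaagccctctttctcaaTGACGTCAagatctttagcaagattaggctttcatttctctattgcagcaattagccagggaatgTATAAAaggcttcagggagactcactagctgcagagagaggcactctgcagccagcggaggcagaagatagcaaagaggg
TGACGTCA reads the same on both strands and occurred in 1.79% of 32851 promoter windows of this length, and TATAAA, sought on both strands, in 13.6%. Both together occurred in 0.17%. The nuclear receptor half-site AGGTCA (16.3% of windows), the same letters repeated in one orientation after 4 free bases (0.0152%), and the GC box GGGCGG (35.7%) were sought on both strands as well, and had no match in the Dio2 window. Among the other members with RefSeq windows, 1 of the 2 Thrb windows held AGGTCA and 3 GC boxes and the other held TATAAA at -167 to -162, and the Dio3 window held TATAAA at -31 to -26 and 4 GC boxes. The Klf9 window held no match to any of these letters, and Thra had no window in the table. A match is a description of the sequence, not a site known to be used.

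Facts of the arrays that touch these genes are given first. Smarca4, which encodes Brg1, was measured by 2 probe sets with differences of 0.18 and -0.70 on the log2 scale (limma adjusted p = 0.866 and 0.598). Whether they lie in the deleted exons is not stated in the labels or the study, and much of an eyeball carries no Cre, so they do not check the labels. Brg1 cKO replicate 1 was male by Xist and Y-linked genes, and the other 5 samples were female. Median intensities lay between 169.1 and 185.5 over the 6 arrays. Against the wild-type mean, lens markers of Brg1 cKO replicates 1, 2 and 3 had median shifts of -2.75, -0.72 and -3.42. Replicate 2 stood apart with the smallest lens shift, and it also held the highest neutrophil shift, 1.88. The labelled tissue was borne out by 11 measured lens and 7 photoreceptor markers. In the mean of all arrays, 0 of these lay near the low end of the scale, while Rpe65 and Lrat among the pigment epithelium markers did.

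Dio2 differed most. Its brightest probe set, 1418937_at, read intensities of 102.9, 67.7 and 148.8 in the controls and 364.7, 1058 and 908.1 in the mutants. Here and below, array values follow the replicate numbers 1 to 3, and mutants and controls mean Brg1 cKO and wild type. Every mutant value lay above every wild-type value, with replicate 1 the lowest of the mutants by more than 2-fold. On the log2 scale the means were 6.66 ± 0.57 and 9.46 ± 0.83 (SD, n = 3), a difference of 2.80 (SE 0.46), or 6.97-fold. Each SE given here is from the limma fit, which draws the variance of a probe set toward that of all probe sets. Of all 22626 probe sets, 73 had a larger positive difference. In RNA from a whole eyeball, more cells of a type and more RNA per cell cannot be told apart. Without Brg1 cKO replicate 2 the difference was 2.51, and without Brg1 cKO replicate 1, the male, it was 3.28.

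The other 2 probe sets of Dio2 lay near the low end of the scale. The 25th percentile of all values, log2 4.84, is used here to mark that end, since the table holds no detection calls. Probe set 1426081_a_at read intensities of 7.37, 6.23 and 7.68 in the controls and 8.75, 13.6 and 36.3 in the mutants, a log2 difference of 1.20 (SE 0.48). All mutant values were above all wild-type values, but the first by little, and without Brg1 cKO replicate 3 the difference was 0.63. Probe set 1418938_at read 7.71, 6.14 and 8.32 in the controls and 6.54, 12.1 and 30.0 in the mutants, a log2 difference of 0.87 (SE 0.51), and here the groups overlapped. It came to 0.28 when Brg1 cKO replicate 3 was left out and to 1.38 when replicate 1 was. In both, replicate 3 was the highest mutant, whereas the bright probe set was highest in replicate 2. The 3 probe sets thus had positive differences in common, but not the order of the mutant arrays. With 32 added to each intensity before the log, which damps low values, the differences of the dim sets were 0.36 and 0.26 and that of the bright set 2.46.

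**Figure D1:**
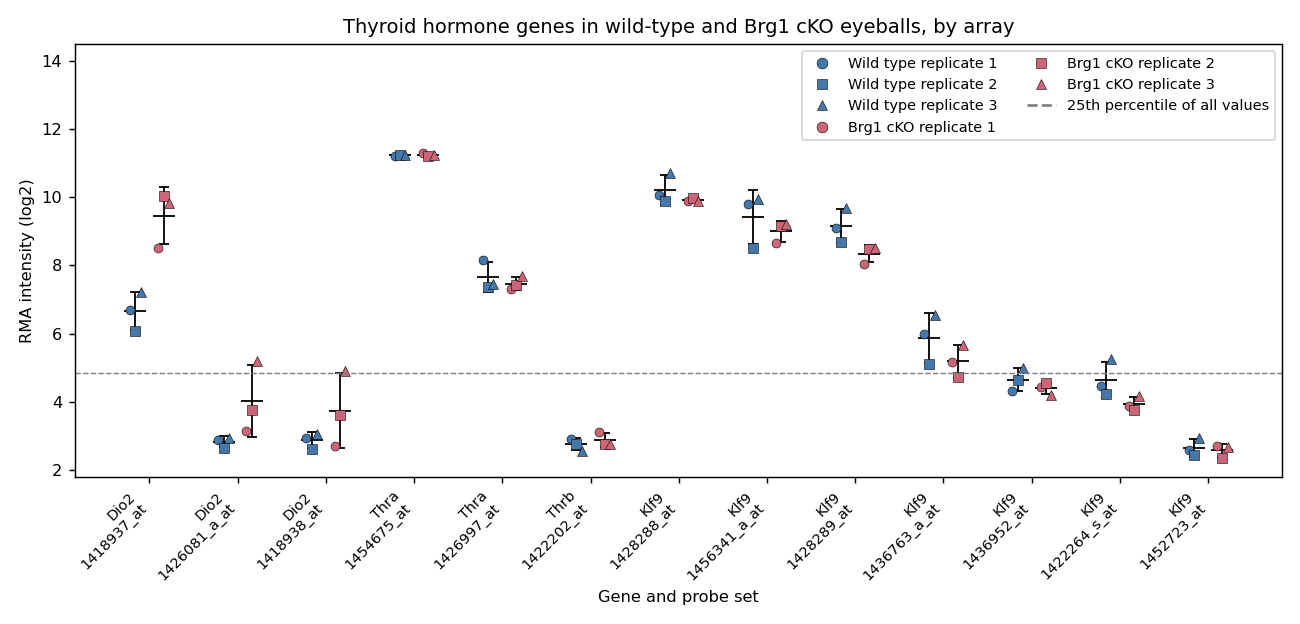
Log2 RMA intensity (vertical axis) of the 13 probe sets of Dio2, Thra, Thrb and Klf9 (horizontal axis), with 1 point per array, wild type in blue and Brg1 cKO in red, the marker shape for the replicate, black bars for mean and SD of 3 arrays, and a dashed line at log2 4.84. Dio2 1418937_at averages 6.66 in the blue and 9.46 in the red points, Thra 1454675_at reads almost the same in all 6 arrays, and wild-type replicate 3 is the highest array in each Klf9 set.

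Of the 13 probe sets, 2 had all mutant values above and 2 all mutant values below the wild-type values. Over all probe sets, groups did not overlap in 13.7%, with 7.31% above and 6.44% below. Of the 13, 0 had a limma adjusted p under 0.05 and 4 an unadjusted p under 0.05, 2 of Dio2 and 2 of Klf9, while 0.508% of all probe sets passed the adjusted threshold and 8.4% the unadjusted one. Template matching, the method the study names, correlates each probe set with the genotype pattern. At p under 0.05 and a fold over 1.5 it selected 1 of the 13, Dio2 1418937_at, and 3.62% of all probe sets. The study reported more genes at these cut-offs, so its count was not reproduced here. Since the genes were chosen with this contrast known, nothing is read from the counts over the 13. A mean at or above log2 4.84 was found for 7 of the 13, 1 of Dio2, 2 of Thra and 4 of Klf9.

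The genes whose profile over the 6 arrays came closest to that of Dio2 1418937_at were Cxcl1, Clec4n and Ptprc. The measure was the root mean square distance in log2 units, after each gene's brightest probe set was centred on its own mean, over 12392 genes. Cxcl1, a chemokine that attracts neutrophils, lay at a distance of 0.15, Clec4n, a lectin receptor of myeloid cells, at 0.25 and Ptprc, the leukocyte surface phosphatase CD45, at 0.25. The median distance over all genes was 1.54. Cxcl1 read log2 3.97, 3.35 and 4.28 in the controls and 5.60, 7.50 and 7.25 in the mutants. It followed Dio2 in the order of all 6 arrays. Ptprc read 4.55, 4.23 and 5.16 in the controls and 6.16, 7.88 and 7.16 in the mutants, and Clec4n, with means of 4.34 and 7.23, put wild-type replicate 1 above replicate 3. Wild-type means of all 3 genes, unlike that of Dio2, were below log2 4.84. The distance is a description over 6 arrays that differ in genotype, and any gene with a like genotype difference comes close by it. Klf9, Thra and Thrb spanned less than 1 log2 unit in their brightest probe sets, so that no neighbours were sought for them.

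**Figure D2:**
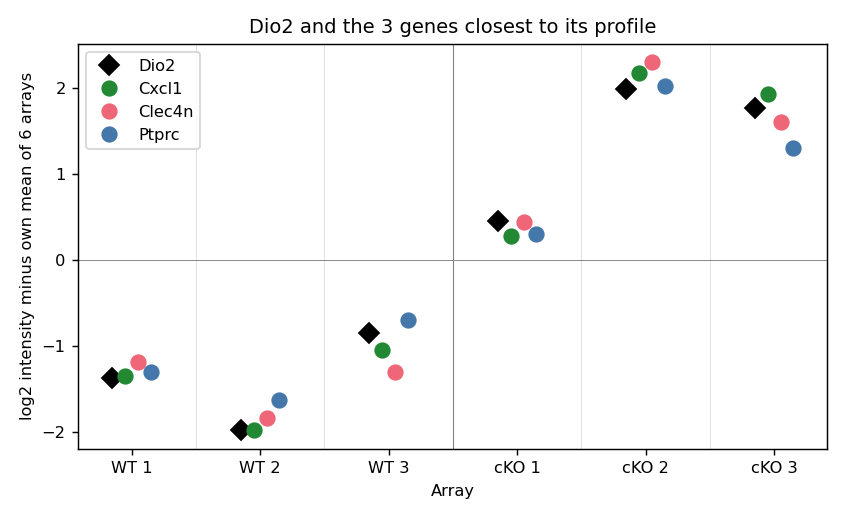
Log2 intensity minus each gene's own mean of 6 arrays (vertical axis) for Dio2 (black diamonds) and for Cxcl1, Clec4n and Ptprc (coloured circles), by array (horizontal axis, WT for wild type and cKO for Brg1 cKO). All 4 genes are lowest in wild-type replicate 2 and highest in Brg1 cKO replicate 2.

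Markers of several cell types differed in the same arrays as Dio2. Of 10 macrophage and microglia markers, 10 had higher means in Brg1 cKO. Their summed intensity was 1860 to 2356 in wild type and 4077 to 10729 in Brg1 cKO. In the mean of all arrays 0 lay near the low end, but the wild-type means of Ptprc and Cd14 did, at 4.65 and 4.41. The list's median shift from the wild-type mean was 0.88, 1.75 and 1.07 in Brg1 cKO replicates 1 to 3, beside 1.85, 3.39 and 3.17 for Dio2. Of 7 neutrophil markers, 4 were higher, with median shifts of 0.14, 1.88 and 0.24 in the mutants. Their sum was 431.5 to 628.3 in wild type and 6921 to 22002 in Brg1 cKO, most of it from S100a8 and S100a9, the markers whose groups did not overlap. Ngp, Mpo and Elane lay near the low end in the mean of all arrays. Of 7 keratin and Sprr genes of stressed epidermis, 7 were higher, with sums of 1182 to 1264 and 6397 to 11571. Their shifts were 3.49, 3.84 and 3.87. Of the mutants, replicate 1 was lowest here, in the macrophage and neutrophil lists and in Dio2. The highest was replicate 3 in stressed epidermis, but replicate 2 in the macrophage and neutrophil lists and in Dio2. Corneal epithelium was lower in 6 of 7 markers, 5 of them without overlap, with Elf5 near the low end, and sums of 9049 to 11409 in wild type and 3175 to 6484 in Brg1 cKO. Its median shifts were -3.00, -2.18 and -2.87. Skeletal muscle, a tissue known to express Dio2, had 10 of 12 markers higher, but its sums overlapped, at 40283 to 65321 in wild type and 31264 to 73951 in Brg1 cKO. Müller glia and astrocyte markers, from cells known for Dio2 in the brain, were higher in 5 of 7 with sums of 11705 to 14272 and 12152 to 14838. Their median difference was 0.01, and Aldoc, the only one without overlap, differed by -1.37. Vascular endothelium was higher in 4 of 6 markers, with sums of 2943 to 3635 and 2787 to 3813. Epidermis outside the stressed list was higher in 3 of 5 markers, with sums of 783 to 1231 in wild type and 1619 to 2303 in Brg1 cKO. Its median shifts in the mutants were 0.25, 1.20 and 0.27. Pigment epithelium was higher in 5 of 6 markers, 0 of them without overlap, with sums of 7534 to 7854 and 7986 to 9424. The part of these cell types in the Dio2 difference was not tested.

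**Figure D3:**
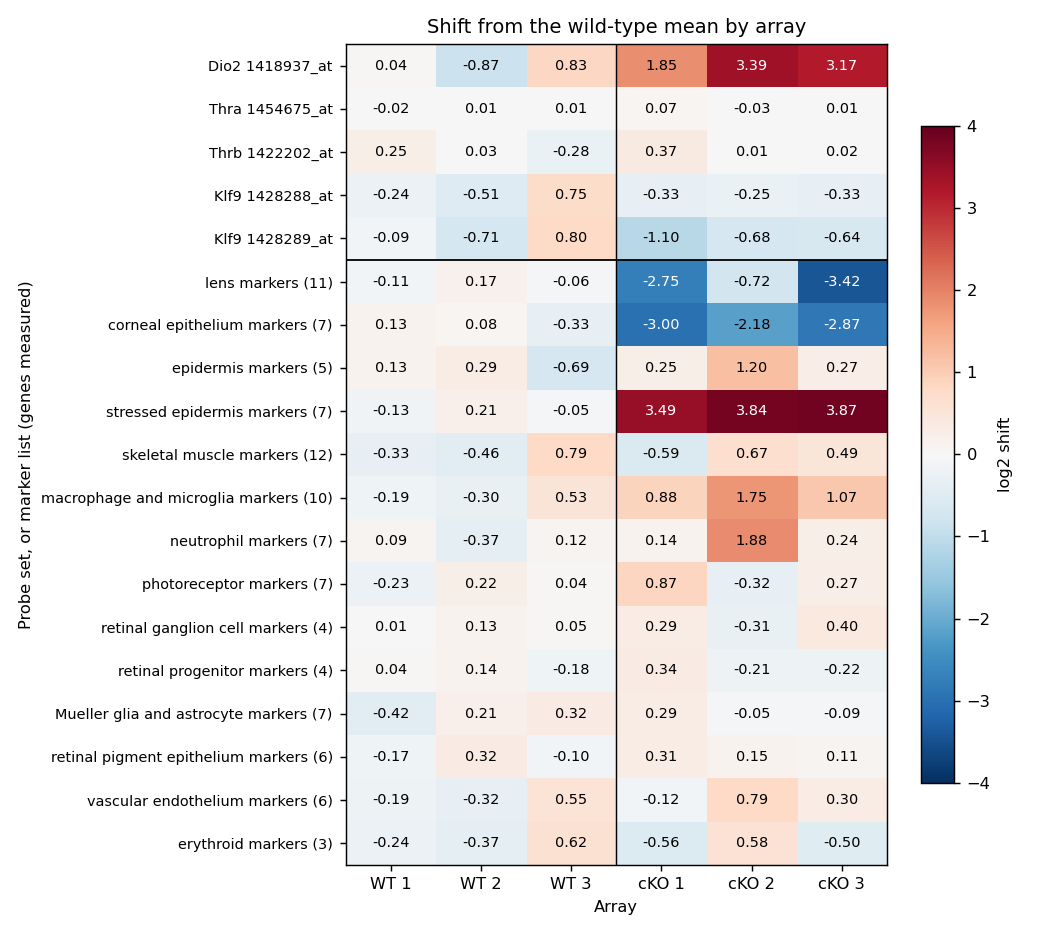
Shift of log2 intensity from the wild-type mean (colour and printed value; each wild-type array is set against the other 2) in each array (horizontal axis) for 5 probe sets of Dio2, Thra, Thrb and Klf9 and, under the black line, for the median of each of 14 marker lists (vertical axis, genes measured in brackets). Dio2 shifts by 1.85, 3.39 and 3.17 in the mutant arrays, and the macrophage and stressed epidermis lists shift upward in the same arrays.

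For Dio3, which had no probe set of its own, the imprinted domain of chromosome 12 that ends in Dio3 was represented by 3 of 6 genes, Meg3, Rian and Dlk1, and 0 of 3 passed the test (0 also at an unadjusted p under 0.05). Over all genes taken by their brightest probe set, 0.694% passed. Meg3, a maternally expressed long noncoding RNA, read log2 11.97, 11.36 and 11.87 in the controls and 12.36, 12.02 and 12.05 in the mutants, a difference of 0.41 (SE 0.22, limma adjusted p = 0.705). All mutant values were above all wild-type values, by as little as 0.05. Rian, another noncoding RNA of the domain, and Dlk1, a paternally expressed Notch ligand homologue, differed by 0.05 (SE 0.24) and 0.07 (SE 0.35). The remaining 4 probe sets of Meg3 differed by 0.28 to 0.56, and its brightest by 0.23 without wild-type replicate 2. The remaining 2 of Rian differed by 0.48 (SE 0.23), with all mutants above all controls, and by -0.21 (SE 0.51). These genes do not stand in for Dio3 itself.

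Thra gave the most even reading of the set. Probe set 1454675_at read 2386, 2419 and 2421 in the controls and 2527, 2366 and 2423 in the mutants. The values interleaved and spanned 0.09 log2 units over the 6 arrays, a range that only 9 of the 22626 probe sets undercut. The log2 difference was 0.017, and it was -0.029 with each array centred on its median. The SE of the fit, 0.15, stood beside SDs of 0.012 in wild type and 0.048 in Brg1 cKO. The mean of this probe set lay at the 91st percentile of all probe sets, well above the low end. The second Thra probe set, 1426997_at, read 286.2, 163.8 and 174.2 in the controls and 159.0, 170.4 and 204.8 in the mutants, where wild-type replicate 1 was high and the rest alike. Its log2 difference was -0.19 (SE 0.25), and 0.07 without wild-type replicate 1. Thra encodes a hormone-binding receptor and, by alternative splicing, a form that does not bind hormone, and neither the labels nor the study state which of them each probe set detects.

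Thrb could hardly be read. Its single probe set, 1422202_at, read intensities of 7.53, 6.81 and 5.90 in the controls and 8.69, 6.77 and 6.82 in the mutants, at the 5.8th percentile of all probe sets. The groups overlapped, with a log2 difference of 0.14 (SE 0.19), and of 0.018 without Brg1 cKO replicate 1. Values this low neither show nor bound a difference in Thrb transcripts.

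Receptor partners and co-regulators were represented by 13 of 16 listed genes, of which 0 passed in either direction. The list's median log2 difference was -0.06, where the median over all 12393 genes was 0.02. Ncoa3, a nuclear receptor coactivator, had the smallest p, with log2 values of 5.98, 6.06 and 4.97 in the controls and 6.40, 6.69 and 6.30 in the mutants and a difference of 0.80 (SE 0.31, limma adjusted p = 0.552). Its groups did not overlap, and wild-type replicate 3 lay about 1 unit below the other wild-type arrays, without which the difference was 0.44. Rxrg, the retinoid X receptor of cones among other cells, differed by 0.52 (SE 0.27), or 0.25 without Brg1 cKO replicate 1, and Med1, a Mediator subunit that nuclear receptors bind, by -0.27 (SE 0.17). Other probe sets of Med1 reached from -0.48 to 0.01.

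Klf9 had lower means in Brg1 cKO in each of its 7 probe sets. The brightest, 1428288_at, read 1069, 945.8 and 1689 in the controls and 953.5, 1002 and 953.5 in the mutants, a log2 difference of -0.30 (SE 0.24). The groups overlapped, and the mutant arrays were closely spaced while wild-type replicate 3 was high. Probe set 1428289_at read 546.9, 411.8 and 828.2 in the controls and 265.7, 355.6 and 366.1 in the mutants, where all mutant values were below all wild-type values. Its log2 means were 9.16 ± 0.51 and 8.35 ± 0.26 (SD, n = 3), a difference of -0.81 (SE 0.29), or 1.75-fold.

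Among the other Klf9 sets, 1456341_a_at differed by -0.43 (SE 0.39) and 1436763_a_at by -0.68 (SE 0.40), both with overlapping groups. The remaining 3 lay near the low end, with differences of -0.71 (1422264_s_at, whose groups did not overlap), -0.25 and -0.08. Some names end in _a_at or _s_at, which on this platform marks probes shared by several transcripts, so the sets need not measure the same RNA.

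Wild-type replicate 3 held the highest value of the 6 arrays in 7 of 7 Klf9 probe sets. Without that array the difference was -0.05 for 1428288_at, -0.54 for 1428289_at and -0.17 for 1456341_a_at. It was -0.35 for 1436763_a_at, -0.41 for 1422264_s_at and -0.08 for 1436952_at, and 0.07 for the dimmest set, 1452723_at, which thus changed sign. Beside this, marker lists of that array shifted against the other wild-type arrays, skeletal muscle by 0.79, erythroid by 0.62, vascular endothelium by 0.55, macrophage by 0.53 and epidermis by -0.69. Muscle summed to 65321 there and to 40283 and 41248 in the other wild-type arrays. Dio2 1418937_at was also highest of the wild-type arrays in replicate 3, at 0.83 above the others. The part of these tissues in the Klf9 difference was not tested.

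Other members of the KLF family of zinc finger factors differed in both directions, none past the test. Of 13 measured genes of 16, 0 passed and 0 had an unadjusted p under 0.05, 5 differences were positive and 8 negative, and the median was -0.10. Klf2, a factor of endothelium and lymphocytes, differed by 0.51 (SE 0.29), Klf3 by -0.57 (SE 0.42) and Klf5, a factor of epithelial progenitors, by -0.47 (SE 0.42). Without Brg1 cKO replicate 1, Klf3 and Klf5 differed by -0.31 and -0.027.

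Genes that respond to glucocorticoids, the other inducer of Klf9, were all measured, and 0 of 9 passed. Ddit4, a stress-induced inhibitor of mTOR signalling, read log2 12.59, 12.32 and 12.01 in the controls and 12.85, 12.75 and 12.95 in the mutants. The groups did not overlap, and the difference was 0.55 (SE 0.20, limma adjusted p = 0.514). Fkbp5, a chaperone of the glucocorticoid receptor, differed by 0.24 (SE 0.16) in its brightest probe set and by 0.63 (SE 0.19, adjusted p = 0.368) in the other, with all mutant values above all wild-type values in both. Hsd11b1, which regenerates active glucocorticoid, differed by 0.88 (SE 0.50) with overlapping groups, and by 0.41 without Brg1 cKO replicate 2. The list's median was 0.12, and 7 of 9 differences were positive.

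The transporters that admit the hormone were measured for 5 of 8 listed genes, and 0 passed the limma test over all probe sets. Slco1a4, an organic anion transporter of brain vessels that carries thyroxine among other substrates, read log2 5.08, 4.76 and 5.58 in the controls and 6.67, 6.12 and 6.08 in the mutants. The groups did not overlap, and the difference was 1.15 (SE 0.27, adjusted p = 0.21), with adjusted p between 0.183 and 0.602 over the alternatives run. Slc7a5, the light chain of a large neutral amino acid transporter that also carries thyroid hormone, read 11.15, 11.01 and 10.88 in the controls and 10.51, 10.54 and 10.83 in the mutants. Mutant values were all lower, the third by only 0.05, and the difference was -0.39 (SE 0.18, adjusted p = 0.642).

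Slco1c1, the thyroxine transporter of the blood-brain barrier, read 5.36, 6.25 and 5.48 in the controls and 6.35, 4.25 and 5.49 in the mutants. It differed by -0.33 (SE 0.52), and by 0.22 without Brg1 cKO replicate 2, the array with the lowest value. Slc7a8, a second light chain, differed by -0.32 (SE 0.28), and by -0.62 and -0.15 without Brg1 cKO replicates 2 and 3. Slc3a2, the heavy chain that both light chains need, differed by 0.016 (SE 0.21). The list's median was -0.32, with 2 differences positive and 3 negative. The listed transporters without a probe set of their own were not analysed here.

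Among carriers, metabolic enzymes and the deiodinase machinery, 0 of 12 measured genes of 14 passed, and 0 had an unadjusted p under 0.05. Dio1, the remaining deiodinase, lay near the low end, with means of 2.16 and 2.48. Iyd, which recovers iodide from iodotyrosines, was near it as well and differed by -0.40 (SE 0.19). Usp20, a ubiquitin protease that stabilises the Dio2 protein, differed by 0.34 (SE 0.18) with groups that did not overlap, and its second probe set by 0.46 (SE 0.18, limma adjusted p = 0.551), again without overlap. The list's median was 0.10.

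**Figure D4:**
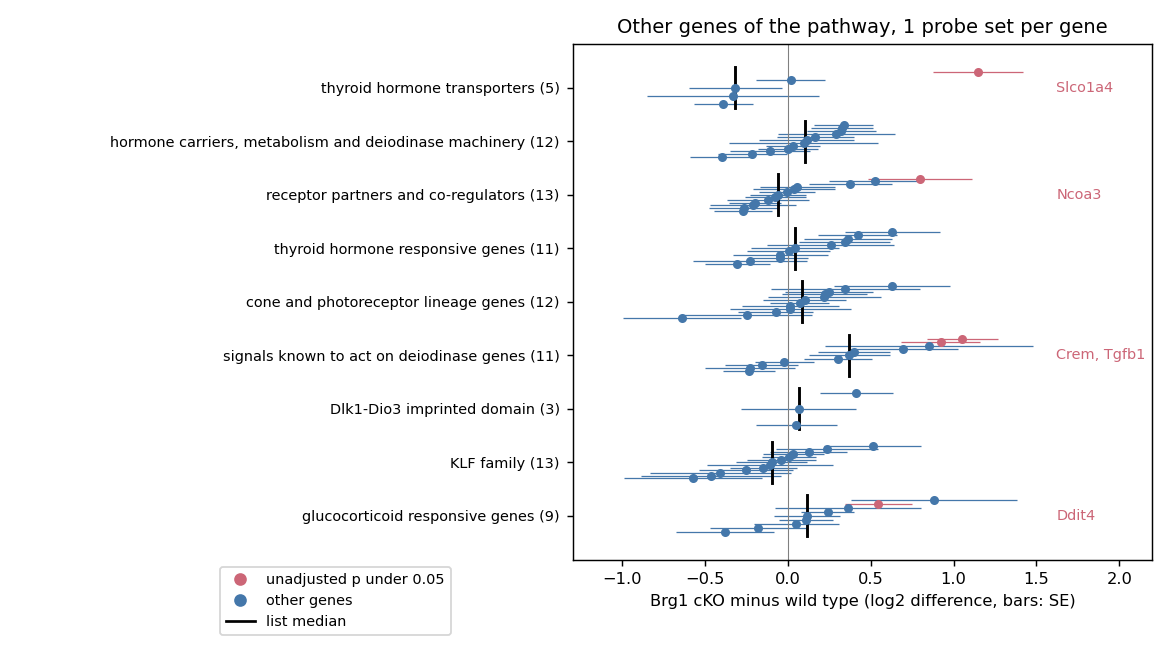
Log2 difference, Brg1 cKO minus wild type (horizontal axis), of the measured genes of 9 lists (vertical axis, genes measured in brackets), with points for genes, bars for the SE of the model and a black line for the list median. The 5 genes with an unadjusted p under 0.05 are red and named at the right, and 0 genes passed after adjustment.

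Genes known to respond to thyroid hormone elsewhere did not pass in either direction, 0 of 11, and 0 had an unadjusted p under 0.05. Rasd2, a striatal GTPase near the low end here, differed by 0.63 (SE 0.29), Gpd2, a mitochondrial dehydrogenase, by 0.42 (SE 0.24) and Hr, the Hairless corepressor and a direct receptor target, by -0.31 (SE 0.19). In each of these 3 the groups did not overlap, and adjusted p-values of the limma fit were 0.638, 0.731 and 0.76. Single arrays weighed on them, since the difference was 0.33 for Rasd2 without Brg1 cKO replicate 1, 0.19 for Gpd2 without wild-type replicate 2 and -0.15 for Hr without wild-type replicate 1. Dimmer probe sets of Rasd2 and Hr, near the low end, differed by 0.31 (SE 0.22) and -0.12 (SE 0.17), with overlapping groups. With 7 positive and 4 negative differences and a median of 0.04, the list lay close to all genes.

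Cone and photoreceptor genes, whose opsin choice depends on Thrb, were measured for 12 of 13, with 0 past the test and 0 at an unadjusted p under 0.05. Onecut1, an early cone and horizontal cell factor, differed by -0.64 (SE 0.36), and Gnat2, the cone transducin, by 0.63 (SE 0.35). Arr3, cone arrestin, lay near the low end and differed by 0.25 (SE 0.27). Opn1mw, a cone opsin, lay near the low end as well, with means of 3.34 in wild type and 3.41 in Brg1 cKO. Its values therefore neither show nor bound a difference. Opn1sw, another cone opsin, lay above the low end, with means of 9.03 in wild type and 9.37 in Brg1 cKO. It differed by 0.35 (SE 0.45), and the mutants read 10.12, 8.26 and 9.74. Its dimmer probe set differed by -0.25 (SE 0.47). Without Brg1 cKO replicate 1, Gnat2 differed by 0.28 and Arr3 by -0.017, and without replicate 3 Onecut1 by -0.99. All 12 had overlapping groups. The median was 0.09, and median shifts of the photoreceptor markers were 0.87, -0.32 and 0.27 in the mutants, which thus differed among themselves in sign.

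Of 12 signals known to act on deiodinase genes, 11 were measured and 0 passed. An unadjusted p under 0.05 was found for 2 of the 11, beside 9.3% of all genes. Tgfb1, the cytokine TGF beta 1, read log2 4.61, 4.55 and 4.70 in the controls and 5.65, 6.03 and 5.33 in the mutants. The difference was 1.05 (SE 0.22, limma adjusted p = 0.134), from wild-type values near the low end. Crem, a transcriptional modulator of the family that binds cAMP response elements, had a control mean of 6.84, from replicates 1 and 2 at 6.75 and 6.78 and a slightly higher replicate 3, and read 7.47, 8.24 and 7.59 in the mutants. The groups did not overlap. Its difference was 0.92 (SE 0.24, adjusted p = 0.263), and mutant replicate 2 was the highest. The other Crem probe sets differed by 0.77 (SE 0.30) and, near the low end, by -0.13 (SE 0.24). Smad3, a mediator of TGF beta signals, differed by 0.70 (SE 0.33) in its brighter and -0.12 (SE 0.20) in its dimmer probe set, both near the low end, and the former by 0.41 without Brg1 cKO replicate 2. The list's median was 0.37, the farthest from 0 of the 9 lists.

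Over the 9 lists together, 0 of 89 measured genes passed. An unadjusted p under 0.05 was found for 5, all with positive differences, where 9.3% of all genes had one and 5.56% with a positive difference. Template matching with a fold over 1.5 selected 3, Slco1a4, Crem and Tgfb1, and 4.37% of all genes. Groups did not overlap with the mutants above in 10 and below in 6, where 14.8% of all genes had groups that did not overlap. Of the differences, 54 were positive and 35 negative, and they reached from -0.64 to 1.15. The gene lists were written with earlier results of these arrays known.

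Leaving out arrays moved the sizes more than the signs. Over 10 alternatives each, the difference stayed positive in the 3 Dio2 probe sets and negative in 6 of the 7 Klf9 sets. For Dio2 1418937_at it lay between 2.46 and 3.28, and for Klf9 1428289_at between -1.05 and -0.54 with arrays left out.

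**Figure D5:**
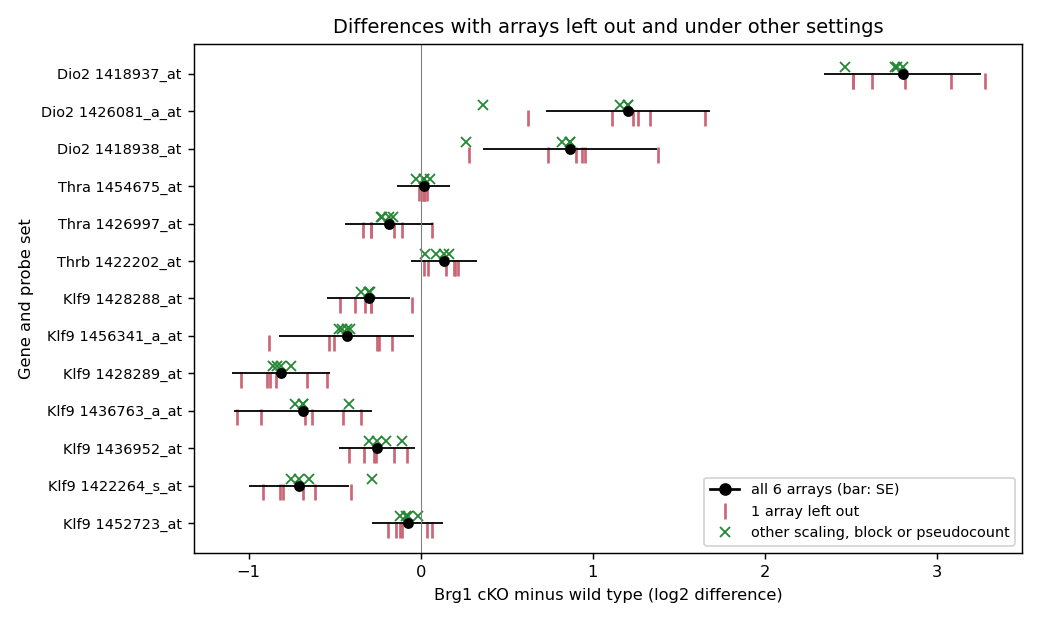
Log2 difference, Brg1 cKO minus wild type (horizontal axis), of the 13 probe sets (vertical axis), with black points and SE bars for all 6 arrays, red ticks with 1 array left out and green crosses under other scalings, the replicate block and a pseudocount of 32. Dio2 sets stay to the right of 0 throughout, Klf9 sets lie to its left except 1452723_at, and the bright Thra set stays near 0.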

How the data were processed

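Per the labels, RNA (50 ng per sample) was amplified by the NuGEN Ovation system and labelled with biotin. By the study's methods it was hybridised to Affymetrix mouse genome arrays. The authors normalized the arrays with RMA (version not given in the sources used here), and the deposited values are linear intensities. RMA compresses global differences, and folds of dim probe sets are understated. Control rows (64 of 22690) were left out. Intensities were converted to log2 and fitted by genotype alone in limma 3.58.1 (R 4.3.3), and a two-sided Benjamini-Hochberg adjusted p under 0.05 over 22626 probe sets was the threshold. Pathway genes were taken by their brightest probe set. Genes named are all probe sets of the members, all measured transporters, in other lists genes past the threshold and the 3 smallest p-values, and the 3 nearest profiles. Other genes and probe sets were named after their values were seen. The members and lists were chosen with earlier results of these data known. On simulated data with independent normal noise, the fit was checked only for the size and sign of changes put in. Such data hold no sex, litter or tissue differences, so this does not measure error rates in these arrays. The precision is limited by 3 arrays per group.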

Additional observations from a re-analysis of the deposited data

How the results depend on the processing

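Of 22626 probe sets, 115 passed with all arrays, 24 to 216 with 1 array left out (24, 26 and 36 without wild-type replicates 1 to 3, 216 and 53 without Brg1 cKO replicates 2 and 3), 0 by template matching with Benjamini-Hochberg adjustment and 820 by template matching with a fold over 1.5. The 0 pathway genes past the threshold became 3 by the latter and stayed 0 in 13 other alternatives. Replicate numbers did not mark shared litters in the labels. Deviations of same-numbered arrays correlated by 0.06, 0.08 and 0.13. With 3 arrays a group such values cannot settle whether same-numbered samples shared a litter. With the replicate block, 45 probe sets passed, and 0 pathway genes. No array correlated best with its own number. The difference of Thra 1454675_at was -0.029 with each array centred on its median and 0.055 with quantile normalization, beside 0.017. Of 130 values of the members under alternatives, 126 moved by less than the spread between replicates. With 1 array of 3 left out, and with the replicate block, this was bound to be so. The count is therefore no measure of stability. Slc3a2 turned to -0.029 with median centring. With arrays left out, differences that changed sign reached from -0.83 to 0.22 for Slco1c1, -0.13 to 0.16 for Slc3a2, -0.017 to 0.42 for Arr3, -0.070 to 0.27 for Rian and -0.26 to 0.43 for Dlk1. The causes of these changes were not tested. With 3 arrays a group and no detection calls, Thrb and the dim sets of Dio2 and Klf9 cannot show a difference reliably.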
